A study of Mus musculus with 16 samples.

Results

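The genes of MHC class I antigen presentation were followed through an RNA sequencing experiment on mouse lung endothelial cells (MLECs), primary-derived cells that line the vessels of the lung. The group was a fixed list of 10 genes, *H2-K1*, *H2-D1*, *B2m*, *Tap1*, *Tap2*, *Tapbp*, *Psmb8*, *Psmb9*, *Psmb10* and *Nlrc5*, matched by symbol. All 10 were found once each among the 55414 genes of the count table, and all 10 were among the 15693 genes with enough counts to be tested. The cells came from 4 isolations, each from an independent *Eng* fl/fl:Rosa26-CRE:Immorto mouse, and every isolation gave 4 libraries. Ctrl cells (labelled WT) had received vehicle in culture and KO cells 4-OH-tamoxifen, which activates the Cre recombinase that removes *Eng*, the gene of the BMP9 co-receptor endoglin. Serum-starved Ctrl cells were then kept for 90 min with PBS or with sENG(M):BMP9 (BMP9 in complex with monomeric soluble endoglin), and KO cells with PBS or with pro:BMP9 (BMP9 with its prodomain), each form of BMP9 at 0.2 ng/ml. Every group, PBS or ligand in Ctrl cells and PBS or ligand in KO cells, thus held 4 libraries, numbered by isolation. The effects of 4-OH-tamoxifen itself and of *Eng* loss cannot be told apart in this design, nor can genotype and the form of the ligand. The cells of all 4 groups carried the Immorto transgene, a temperature-sensitive large T antigen under the interferon-inducible H-2Kb promoter, the promoter of the b-haplotype form of *H2-K1*. Maintenance medium held interferon-γ at 20 U/ml, together with SB431542 (an inhibitor of the type I receptors for TGF-β, at 1 μM), and both agents were left out of the medium before the ligands were added.

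MHC class I molecules show peptides from inside the cell to cytotoxic T cells. The immunoproteasome, in which the interferon-inducible subunits *Psmb8*, *Psmb9* and *Psmb10* take the places of the standard catalytic subunits, cuts proteins to peptides, the transporter formed by *Tap1* and *Tap2* carries them into the endoplasmic reticulum, and tapasin (*Tapbp*) holds an empty class I molecule at the transporter until a peptide binds. The class I molecule itself is a heavy chain (*H2-K1* or *H2-D1*) with β2-microglobulin (*B2m*), and NLRC5 (*Nlrc5*) is the transactivator that acts at class I promoters. Interferon-γ raises the expression of these genes in many cell types, endothelial cells among them, where class I molecules are known as targets of graft rejection.

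In GRCm39 coordinates, 7 of the 10 genes lie on chromosome 17, within the mouse MHC. *Psmb9* (ENSMUSG00000096727, chr17:34400961-34406738, reverse strand), *Tap1* (ENSMUSG00000037321, chr17:34406527-34416199), *Psmb8* (ENSMUSG00000024338, chr17:34416695-34420428) and *Tap2* (ENSMUSG00000024339, chr17:34422501-34435295) are next to each other, and *Tapbp* (ENSMUSG00000024308, chr17:34134873-34148266), *H2-K1* (ENSMUSG00000061232, chr17:34214991-34219321, reverse strand) and *H2-D1* (ENSMUSG00000073411, chr17:35481706-35486475) lie to either side. *B2m* (ENSMUSG00000060802) is at chr2:121978167-121983564, and *Nlrc5* (ENSMUSG00000074151, chr8:95160984-95253900) and *Psmb10* (ENSMUSG00000031897, chr8:106662367-106665076, reverse strand) are on chromosome 8. In a GENCODE annotation of GRCm39, *Tap1* and *Psmb9* overlap head to head by 743 bases on opposite strands, *B2m* lies within *Patl2* on the opposite strand, and *Tapbp* overlaps *Zbtb22* on the same strand. The libraries mark the strand, but the strand setting of the counting was not given in the sources used here, so reads from the shared bases of opposite-strand pairs may not be separable. Of all 150-base windows of the canonical *H2-D1* transcript, 1.78% were also found in another class I gene, *H2-Q1*. No window of the canonical transcripts of the other 9 genes was found in a transcript of another gene. Windows were compared only with transcripts in the same orientation, so sharing between opposite strands or with the rest of the genome was not sought.

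Promoters of the class I heavy chains and *B2m* are known to share the SXY module. Its Y box is read as CCAAT and its X2 box contains TGACG. Upstream of it lie binding sites for NF-κB and interferon regulatory factors. The RefSeq promoter table (GRCm38.p6, windows that end shortly after each start) held 8 of the 10 genes, all but *Tap2* and *Nlrc5*. The stretches printed here carry such letters or those of the other motifs named below, in genes whose levels rose and fell together across the isolations. They are written 5′ to 3′ along the gene's strand. The capitals mark CCAAT (read as ATTGG when on the other strand), TGACG (the letters of the X2 box) and the κB pattern (GGG and CC with any 5 bases between them, in the first 3 genes). They also mark the interferon-stimulated response element core (GAAA, any 2 bases and GAAA, in *B2m*), the BMP response element core GGCGCC (in *Tap1*) and the γ-activated site (TTC, any 3 bases and GAA, in *Psmb8*). In *Tap1* CCAAT (position -222) lies upstream of TGACG (position -86), the reverse of the order of TGACG and ATTGG in the first 3 genes. *Psmb8* held neither CCAAT nor TGACG.
H2-K1 (GRCm38.p6, chr17:34000358-34000479, reverse strand): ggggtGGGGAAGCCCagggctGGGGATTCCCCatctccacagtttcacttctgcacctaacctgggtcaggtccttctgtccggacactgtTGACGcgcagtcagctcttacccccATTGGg
H2-D1 (GRCm38.p6, chr17:35262902-35263046, forward strand): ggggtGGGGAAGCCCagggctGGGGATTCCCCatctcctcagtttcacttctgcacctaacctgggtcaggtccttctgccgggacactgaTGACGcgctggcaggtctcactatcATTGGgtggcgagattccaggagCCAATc
B2m (GRCm38.p6, chr2:122147542-122147646, forward strand): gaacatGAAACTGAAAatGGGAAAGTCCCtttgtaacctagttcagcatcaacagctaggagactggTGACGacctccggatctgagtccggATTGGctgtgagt
Tap1 (GRCm38.p6, chr17:34187331-34187485, forward strand): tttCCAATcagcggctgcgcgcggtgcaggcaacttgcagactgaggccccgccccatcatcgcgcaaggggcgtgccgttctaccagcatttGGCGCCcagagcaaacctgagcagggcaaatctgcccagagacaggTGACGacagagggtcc
Psmb8 (GRCm38.p6, chr17:34198085-34198114, forward strand): cagtcctccgctgTTCCCAGAAgatgcccc

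Matches were sought on both strands of the whole 300-base windows. TGACG was found in 5 of the 8 genes (*H2-K1*, *H2-D1*, *B2m*, *Tap1* and *Psmb9*), against 20.8% of all promoters in the table, and CCAAT in 6 (the same 5 and *Tapbp*), against 37.4%. The κB pattern was present in those same 5 genes and in 50.8% of all promoters, in some places on both strands of the same or neighbouring bases. The exact letters of the interferon element core occurred only in *B2m* (3.44% of all promoters) and those of the γ-activated site only in *Psmb8* (8.3%). Interferon elements with other letters were not sought, so the other promoters were not shown to lack one. GGCGCC was found in *Tap1* and *Psmb9* (11.9% of all promoters). The stretches of *H2-K1* and *H2-D1* from the κB match GGGGAAGCCC (positions -127 and -187) to the next CCAAT (positions 8 and -53) were alike. They had 124 identical bases over 140 aligned columns, an identity of 88.6%. In *H2-K1* this CCAAT lies past the start and outside the printed stretch. A match describes the letters of the window and does not show that a factor is bound there.

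The libraries held 14869115 to 17242117 counts on genes, and the 10 genes together held 0.397% to 0.701% of them, from 274 to 40148 counts per gene and library. *Eng* was between 375 and 776 CPM (the usual count scale relative to the library total, here with totals adjusted by the trimmed mean of M values, TMM) in the 8 Ctrl libraries and between 40.1 and 129.8 CPM in the 8 KO libraries. Endothelial markers (8 of 8 listed genes tested) summed to 3051 to 6373 CPM per library. Leukocyte markers summed to 34.7 to 50.6 CPM, and the defining *Ptprc*, *Itgam*, *Adgre1* and *Cd3e* were under 1 CPM in every library. Fibroblast and mural markers summed to 76.0 to 738 CPM, and epithelial markers to 52.7 to 182 CPM, with *Sftpc* at 0 in all libraries.

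Levels between genes were compared per kilobase of gene length. *B2m* was the highest, at a mean of 2364 CPM per kilobase of the deposited length over the 16 libraries, followed by *H2-D1* (486) and *H2-K1* (407), and the processing and loading genes were lower by a wide margin. *Tapbp* had 49.1 CPM per kilobase, *Psmb8* 27.2, *Tap2* 26.5, *Tap1* 24.6, *Psmb10* 18.5, *Nlrc5* 14.6 and *Psmb9* 9.02. Each gene was above the next in all 16 libraries except for 2 neighbouring pairs, *Psmb8* above *Tap2* in 9 of 16 and *Tap2* above *Tap1* in 14 of 16. With the length of the canonical transcript in place of the deposited one, an alternative chosen after the data were seen, *H2-K1* (739 CPM per kilobase) came before *H2-D1* (592) in all 16 libraries, *Tap1* (43.4) came before *Tap2* (25.2), and *Psmb9* (24.4), *Psmb10* (just below it) and *Tap2* could not be ordered, being in the stated order in 10 or 11 of 16 libraries per neighbouring pair. In both scales the heavy chains and *B2m* held the first 3 places in every group.

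The isolations separated the libraries in these genes more than genotype or ligand did. *Nlrc5* had 83.3, 77.8, 171 and 174 CPM in the Ctrl PBS libraries of isolations 1, 2, 3 and 4, and 105.6, 85.3, 173 and 158 CPM in the KO PBS libraries. With ligand it had 70.5, 67.7, 137 and 173 CPM in Ctrl cells and 91.5, 85.7, 178 and 157 CPM in KO cells. Isolations 3 and 4 were high in all 4 groups, and none of their libraries overlapped with those of isolations 1 and 2. The same held for 9 of the 10 genes, against 10.9% of all tested genes, and the exception was *B2m*, whose highest library of isolations 1 and 2 (1997 CPM) was slightly above its lowest of isolations 3 and 4 (1979 CPM). This is a description, because the isolations were set apart by these values. Fewer expressing cells and less RNA per cell cannot be told apart in such bulk libraries.

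**Figure D1:**
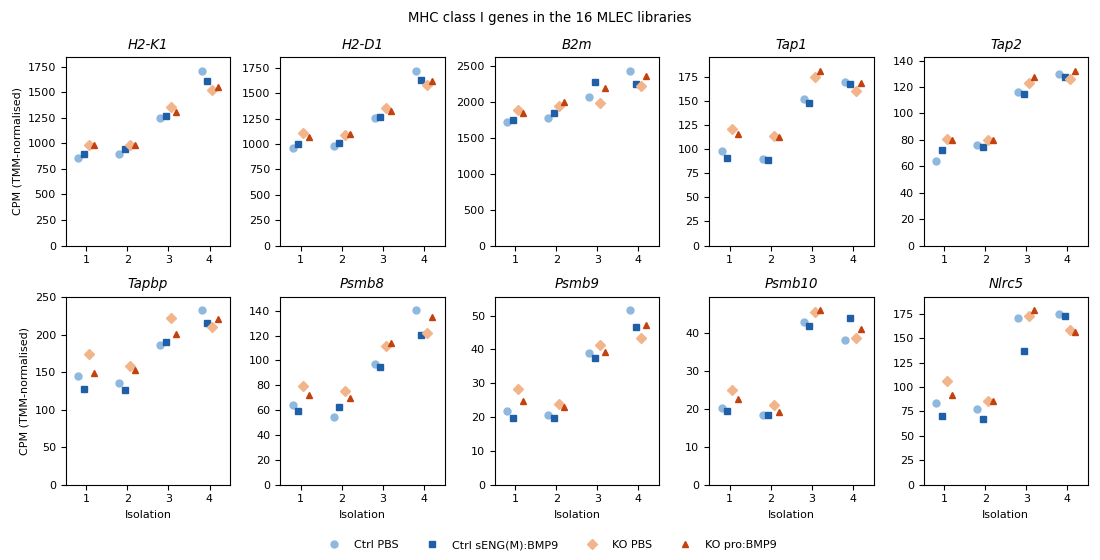
TMM-normalised CPM (linear axes from 0, one panel per gene) of the 10 MHC class I genes in each of the 16 libraries, by isolation; each point is 1 library, and colour and shape give the group. Within an isolation the 4 groups lie close together, and for 9 of the 10 genes all libraries of isolations 3 and 4 are above those of isolations 1 and 2.

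As a description with no test, the ratio of the highest to the lowest isolation mean was 2.29 for *Psmb10*, 2.17 for *Psmb9*, 2.09 for *Nlrc5* and 1.97 for *Psmb8*. It was 1.74 for *Tap2*, 1.71 for *H2-K1*, 1.65 for *Tap1*, 1.58 for *H2-D1*, 1.53 for *Tapbp* and 1.29 for *B2m*. *Psmb10* thus had the widest span and *B2m* the narrowest, with a median of 1.72 over the 10 genes and of 1.37 over all tested genes. Of the variance of the log2 values over the 16 libraries, the isolation held between 83.6% and 96.9% in these genes (median 92.5%, against 63.8% over all tested genes). Genotype held a median of 2.11% (1.35% over all tested genes), with the highest share in *Tap1* (8.65%) and *Tapbp* (6.71%), and treatment a median of 0.145% (2.30% over all tested genes). The summed leukocyte markers did not follow this order, with 39.6, 49.5, 34.9 and 46.7 CPM in Ctrl PBS libraries of isolations 1 to 4. Fibroblast and mural markers summed to 732, 81.2, 697 and 558 CPM in those libraries, an order also unlike that of the class I genes. The summed epithelial markers did divide the isolations in the same way, in the opposite direction, with 139, 165, 64.0 and 53.5 CPM. Most of that sum was *Krt18* (92.0, 159, 50.8 and 47.2 CPM), and *Krt8* (42.5, 2.43, 8.34 and 2.90 CPM) did not divide them so. The endothelial marker *Kdr*, a receptor for VEGF, also divided them in the opposite direction, with 128, 137, 37.7 and 26.2 CPM. The endothelial markers *Pecam1* (1303, 1877, 703 and 1405 CPM) and *Esam* (180, 257, 140 and 247 CPM) did not. The summed endothelial markers were at 4773, 6265, 3051 and 4615 CPM. The part of these cell types in the isolation pattern was not tested.

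The first comparison set KO against Ctrl cells, in PBS, where both received the same treatment, and with ligand, where the form of BMP9 differed with genotype. The average of both comparisons therefore also carries the form of BMP9. All 10 genes had a positive log2 fold change in KO against Ctrl cells, but the differences were small and only *Tap1*, a subunit of the peptide transporter, passed the test, in the comparison that averaged both treatments. In PBS the fold changes lay between 0.02 and 0.18 on the log2 scale (median 0.10, against -0.00089 over all tested genes), and none of the 10 passed (edgeR's quasi-likelihood test with Benjamini-Hochberg adjustment over all tested genes), where 0.0191% of all tested genes did. With ligand they lay between 0.05 and 0.24 (median 0.13), and again none passed, where 0.255% of all genes did. Averaged over both treatments they lay between 0.03 and 0.21 (median 0.11), with 1 gene of 10 called, against 1.38% of all genes called, 0.701% of them as higher. Of all tested genes, 49.6% had a positive fold change in the averaged comparison. The 10 genes varied together from library to library, so they do not make 10 independent observations. The unadjusted p was under 0.05 for 5 genes in PBS (6.82% of all genes), 5 with ligand (9.27%) and 7 in the average (11.6%). DESeq2 with the same block called 0, 1 and 3 of the 10 genes, against 0.0446%, 0.879% and 1.74% of all genes. For every gene of the 10 the ranges of the KO and Ctrl libraries overlapped in PBS and with ligand. The share of all tested genes with such an overlap was not counted, so the overlap is not read as particular to these genes.

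*Tap1*, whose product carries peptides into the endoplasmic reticulum, was at 98.3, 90.2, 152 and 170.0 CPM in the Ctrl PBS libraries of isolations 1 to 4 and at 121, 113, 174 and 161 CPM in the KO PBS libraries. With ligand it was at 91.2, 88.5, 148 and 168 CPM in Ctrl cells and at 116, 113, 181 and 168 CPM in KO cells. The KO library was the higher one of its isolation in isolations 1, 2 and 3 under both treatments, while in isolation 4 it was lower in PBS and higher with ligand by only 0.0025 on the log2 scale. The averaged log2 fold change of *Tap1* was 0.21 (standard error, SE, 0.0437, adjusted p = 0.0193 by edgeR, 16 libraries of 4 isolations), an increase of 15.7% with a 95% interval of 8.60% to 23.4%. The fit counts the PBS and ligand libraries of an isolation as separate observations of genotype. It therefore does not allow in full for a KO difference that varies among isolations (0.32, 0.34, 0.24 and -0.04 in isolations 1 to 4). The SE and adjusted p can thus be too small and the interval too narrow, here and for the averaged differences of the other genes. With ligand alone the log2 fold change of *Tap1* was 0.24 (SE 0.0618, adjusted p = 0.0957) and in PBS alone 0.18 (adjusted p = 0.528). The averaged call was lost without isolation 1, 2 or 3 (adjusted p of 0.220, 0.189 and 0.163) and in a fit that ignored the isolations (adjusted p = 1.00). Without isolation 4 the log2 fold change of *Tap1* was 0.30 (adjusted p = 3.02e-05), and 6 of the 10 genes were then called, *H2-D1*, *H2-K1*, *Nlrc5*, *Psmb8*, *Tap1* and *Tapbp*. In that fit 257 of all 15693 tested genes (1.64%) were called.

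*Tap2*, the partner of *Tap1* in the transporter, had 63.7, 76.3, 116 and 130.0 CPM in Ctrl PBS and 80.8, 79.5, 123 and 126 CPM in KO PBS libraries. Its averaged log2 fold change was 0.11 (SE 0.0345, adjusted p = 0.156), with the KO mean higher in 4 of 4 isolations. *Tapbp* had 145, 135, 187 and 233 CPM in Ctrl PBS and 174, 158, 223 and 210.5 CPM in KO PBS libraries. For *Tapbp* the KO library was higher in isolations 1 to 3 and lower in isolation 4, and the averaged log2 fold change was 0.15 (SE 0.0422, adjusted p = 0.0995). Neither passed the test, and the intervals of the averaged differences were 2.56% to 13.4% for *Tap2* and 4.30% to 18.0% for *Tapbp*.

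Among the immunoproteasome subunits, *Psmb8* had the largest difference. It was at 64.5, 54.9, 97.2 and 140.2 CPM in Ctrl PBS and at 79.4, 75.5, 112 and 122 CPM in KO PBS libraries. With ligand it was at 59.3, 62.7, 94.7 and 120.2 CPM in Ctrl cells and at 72.3, 69.7, 114 and 135 CPM in KO cells. The KO library with ligand was higher in 4 of 4 isolations, and in PBS in 3 of 4, again with isolation 4 the lower one. The averaged log2 fold change of *Psmb8* was 0.20 (SE 0.0503, adjusted p = 0.0658), that of *Psmb9* 0.12 (adjusted p = 0.439) and that of *Psmb10* 0.11 (adjusted p = 0.388). Across the 16 libraries *Psmb9* ranged from 19.6 to 51.5 CPM and *Psmb10* from 18.4 to 46.1 CPM, the lowest counts of the 10 genes.

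Each inducible subunit was also set against the standard subunit it replaces, *Psmb8* over *Psmb5*, *Psmb9* over *Psmb6* and *Psmb10* over *Psmb7*, as a ratio of CPM per kilobase within a library, which does not depend on library scaling. The *Psmb8* to *Psmb5* ratio was 0.307, 0.233, 0.436 and 0.679 in the Ctrl PBS libraries of isolations 1 to 4, against 0.353, 0.336, 0.458 and 0.602 in KO PBS libraries. With ligand it was 0.274, 0.252, 0.438 and 0.585 in Ctrl cells and 0.344, 0.351, 0.521 and 0.653 in KO cells. The ratios were higher in isolations 3 and 4 for all 3 pairs, while the standard subunits themselves stayed within 52.9 to 66.0 CPM (*Psmb5*), 71.8 to 90.9 CPM (*Psmb6*) and 95.6 to 120 CPM (*Psmb7*). With ligand the *Psmb8* to *Psmb5* ratio was higher in KO cells in 4 of 4 isolations, by 0.30 ± 0.134 on the log2 scale (SD, n = 4). The exact permutation test (two-sided) gave the smallest p that 4 pairs allow, and with 4 pairs it cannot reach 0.05. The other 5 ratio comparisons had log2 differences of 0.003 to 0.16 and exact permutation p-values of 0.375 to 1, and with 6 comparisons the Benjamini-Hochberg adjusted p of the smallest was 0.75. The absolute ratios depend on the gene length: with the canonical transcript the mean *Psmb8* to *Psmb5* ratio over the 16 libraries was 1.60 in place of 0.427. In the canonical transcript of *Psmb5*, 13.5% of the 150-base windows were shared with other genes.

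**Figure D2:**
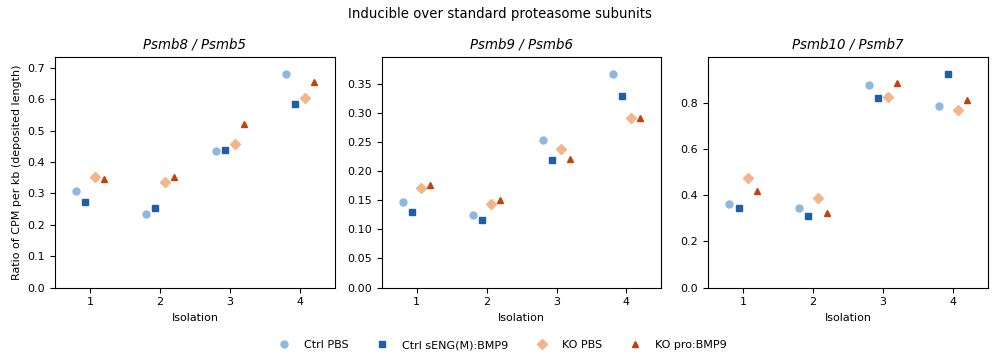
Ratio of the inducible to the standard proteasome subunit (CPM per kilobase of the deposited length, linear axes from 0) in each library, by isolation; each point is 1 library, and colour and shape give the group. All 3 ratios are higher in isolations 3 and 4, and the *Psmb8* to *Psmb5* ratio with ligand is higher in KO than in Ctrl cells in 4 of 4 isolations.

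The genes of the class I molecule itself had the 3 smallest averaged log2 fold changes of the 10. *H2-K1* was at 859.6, 899, 1247 and 1708 CPM in Ctrl PBS and at 989, 982, 1360.2 and 1528 CPM in KO PBS libraries. *H2-D1* was at 961, 983, 1259.6 and 1715 CPM in Ctrl PBS and at 1109, 1088, 1349.9 and 1575 CPM in KO PBS libraries. Both heavy chains were higher in the KO cells of isolations 1 to 3 and lower in those of isolation 4, so that the KO libraries spanned a narrower range than the Ctrl libraries and lay within it. *B2m* was at 1715, 1780.2, 2063 and 2426 CPM in Ctrl PBS and at 1881, 1940.4, 1979 and 2218 CPM in KO PBS libraries, higher in 2 isolations and lower in 2. The averaged log2 fold changes were 0.08 for *H2-D1* (adjusted p = 0.289), 0.06 for *H2-K1* (adjusted p = 0.507) and 0.03 for *B2m* (adjusted p = 0.757). Their intervals reached from -2.26% for *B2m* to 9.96% for *H2-D1*.

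*Nlrc5*, the transactivator, had an averaged log2 fold change of 0.15 (SE 0.0563, adjusted p = 0.243). Its KO libraries with ligand were higher by 0.38, 0.34 and 0.38 on the log2 scale in isolations 1 to 3 and lower in isolation 4, where the difference was -0.14. In PBS the corresponding differences were 0.34, 0.13, 0.01 and -0.14.

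Isolation 4 thus differed from the others in many of these genes. The median log2 difference of the 10 genes between KO and Ctrl cells in PBS was 0.30, 0.18, 0.09 and -0.14 in isolations 1 to 4, and 9 of the 10 genes were lower in the KO cells of isolation 4. With ligand the medians were 0.21, 0.14, 0.11 and 0.01. The medians over all tested genes in PBS lay between -0.00518 and 0.00738 in the 4 isolations. With ligand 5 genes, *Tap1*, *Tap2*, *Tapbp*, *Psmb8* and *Psmb9*, were higher in the KO cells of all 4 isolations (7.9% of all tested genes were), and in PBS 1 gene was, *Psmb10* (7.33%). Whether the KO difference varied among isolations was tested with an F test over the isolation by genotype terms of the same model, added after the values were seen. It called *Tap1* (adjusted p = 0.0169) and *Nlrc5* (adjusted p = 0.0455) of the 10 genes, against 1.41% of all tested genes, and *H2-K1* had an adjusted p of 0.0700. This test takes its spread from the PBS and ligand libraries of the same isolation and genotype. An isolation gave 1 library per group, so variation between cultures cannot be told apart from a KO difference that varies among isolations. Fibroblast and mural markers also moved with genotype, with 4 of 8 lower in KO cells in the averaged comparison (*Dcn*, *Lum*, *Col1a1* and *Col1a2*, at log2 fold changes of -0.61, -1.07, -0.29 and -0.23). Of all 15693 tested genes, 107 were called lower there. *Lum* was near the floor, at 0.713 CPM or less in isolations 1 to 3. In isolation 4 it had 4.89 CPM in Ctrl PBS and 2.06 CPM in KO PBS. The sum of the fibroblast and mural markers was 732 CPM in Ctrl PBS and 546 CPM in KO PBS of isolation 1, and 558 and 374 CPM in isolation 4. In isolation 2 it was 81.2 and 80.1 CPM, and in isolation 3 it was 697 and 622 CPM. Of the 8 endothelial markers, 1 was called higher in KO cells in the averaged comparison, *Esam* (log2 fold change 0.11, adjusted p = 0.0320), and none lower. By the unadjusted p under 0.05, 5 of these 8 differed, and DESeq2 called 2. The part of either set of markers in the KO differences was not tested.

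**Figure D3:**
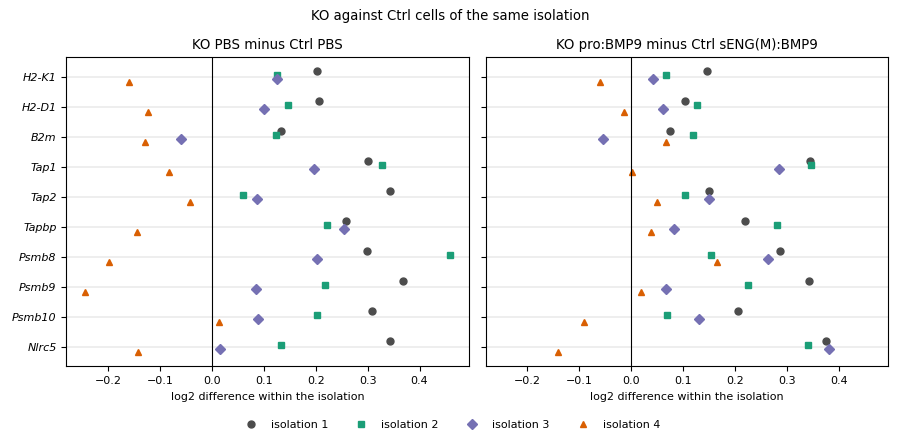
log2 difference between KO and Ctrl cells of the same isolation (horizontal axis, prior count of 2) for each of the 10 genes, in PBS (left) and with ligand (right); each point is 1 isolation and the vertical line marks no difference. In PBS the points of isolation 4 are below 0 for 9 of 10 genes, while those of isolations 1 and 2 are above 0 for all 10.

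The next question was whether BMP9 changed these genes within 90 min. None of the 10 passed the test in either genotype, while 9.69% of all tested genes passed in Ctrl cells given sENG(M):BMP9 and 5.59% in KO cells given pro:BMP9. By the unadjusted p under 0.05, 1 gene differed in Ctrl cells (19.6% of all genes) and none in KO cells (14.1%), and DESeq2 called none in either (8.7% and 5.17% of all genes). The log2 fold changes lay between -0.19 and 0.04 in Ctrl cells (median -0.02) and between -0.09 and 0.06 in KO cells (median -0.01). The 95% intervals of all 10 genes lay within 0.783-fold to 1.13-fold in Ctrl cells and within 0.864-fold to 1.11-fold in KO cells, so a change beyond these bounds was outside every interval. The intervals were narrowest for the abundant *H2-D1*, at -5.63% to 6.44% in Ctrl cells and -6.44% to 5.53% in KO cells. These intervals do not exclude smaller changes.

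*Nlrc5* had the largest ligand difference. In Ctrl cells it was lower with sENG(M):BMP9 in 4 of 4 isolations, by log2 differences of -0.24, -0.20, -0.32 and -0.01 (13.6% of all tested genes were lower in all 4). The fitted log2 fold change was -0.19 (SE 0.0797, adjusted p = 0.191, interval -21.7% to -1.24%), and in KO cells with pro:BMP9 it was -0.04 (adjusted p = 0.929). The call depended on the processing: *Nlrc5* passed without isolation 4 (log2 fold change -0.26, adjusted p = 0.00756), in a fit of the 8 Ctrl libraries alone (adjusted p = 0.0231), without a filter on low counts (adjusted p = 0.00315) and after quantile normalisation, ComBat and DESeq2 (adjusted p = 0.0139). *Tap1* and *Psmb9* were also lower in 4 of 4 isolations in Ctrl cells, at fitted log2 fold changes of -0.05 (adjusted p = 0.793) and -0.11 (adjusted p = 0.551). In KO cells no gene of the 10 moved in 1 direction in all 4 isolations.

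**Figure D4:**
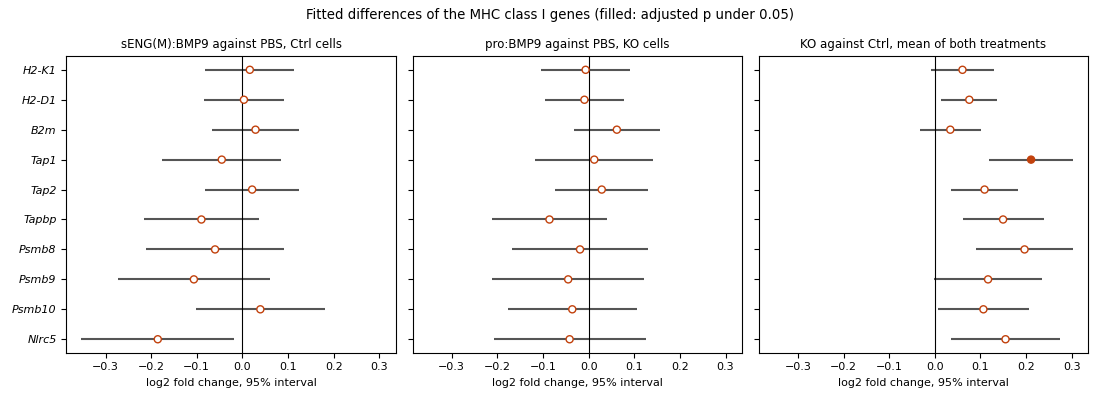
Fitted log2 fold changes with 95% intervals of the 10 genes for ligand against PBS in Ctrl cells (left), ligand against PBS in KO cells (middle) and KO against Ctrl cells averaged over both treatments (right), from the edgeR model with the isolation as a block; filled points have an adjusted p under 0.05. The ligand differences lie on both sides of 0, those of genotype are all above 0, and only *Tap1* in the right panel is filled.

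The ligand responses of KO and Ctrl cells did not differ detectably in these genes. None of the 10 passed the test of the difference by edgeR, nor by DESeq2, and none had an unadjusted p under 0.05. Of all tested genes, 0% were called and 3.6% had an unadjusted p under 0.05. The largest difference was that of *Nlrc5*, 0.14 on the log2 scale (SE 0.112, 95% interval -0.09 to 0.38). Here the forms of the ligand differ as well as the genotypes.

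Other genes of the pathway were read from lists of known function. Of 12 tested class I heavy chains other than *H2-K1* and *H2-D1*, 1 was higher in KO cells in the averaged comparison and none lower (median 0.09): *H2-T22*, a nonclassical class I gene, rose by a log2 fold change of 0.24 (adjusted p = 0.0208), from 99.0, 92.3, 168 and 242 CPM in Ctrl PBS to 139, 107, 189 and 213 CPM in KO PBS libraries. In PBS it was higher in KO cells of isolations 1 to 3 and lower in isolation 4, and with ligand it was higher in KO cells of all 4 isolations. For ligand against PBS, none of the 12 passed in either genotype by edgeR or DESeq2. By the unadjusted p under 0.05, 1 differed there in Ctrl cells and 0 in KO cells. For KO against Ctrl cells with ligand, none passed by edgeR and DESeq2 called 1 (0.879% of all genes). In the averaged comparison DESeq2 called 2 (1.74% of all genes). In each of these 2 comparisons 5 of the 12 had an unadjusted p under 0.05 (9.27% and 11.6% of all genes). None of 9 genes of peptide trimming and loading passed in any comparison by either tool, with at most 1 at an unadjusted p under 0.05. The most abundant of them, *Pdia3* and *Calr*, chaperones of the loading complex, had averaged log2 fold changes of -0.0003 and 0.05 (adjusted p = 0.998 and 0.551). Among 5 genes of the proteasome activator, *Psme2*, a subunit of the interferon-inducible PA28 ring, fell with sENG(M):BMP9 in Ctrl cells (log2 fold change -0.26, adjusted p = 0.0441), and none of the other genes passed in any comparison. *Psme2* had a log2 fold change of -0.17 in KO cells with pro:BMP9 (adjusted p = 0.361). None of the 3 standard catalytic subunits passed by either tool, and none had an unadjusted p under 0.05 in any comparison.

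Among transcription factors known to act at class I genes, *Irf9*, a subunit of the complex that type I interferon activates, rose in KO cells in the averaged comparison, with a log2 fold change of 0.30 (SE 0.0591, adjusted p = 0.0146). It did not pass in PBS alone or with ligand alone (adjusted p of 0.521 and 0.0755 by edgeR). In PBS of isolation 4 it was lower in KO cells (85.8 CPM, against 90.9 CPM in Ctrl cells). With ligand, *Irf2*, *Creb1* and *Nfya*, which bind the interferon element, the X2 box and the Y box, rose in Ctrl cells by log2 fold changes of 0.33, 0.47 and 0.44 (adjusted p of 0.000564, 0.000562 and 9.29e-06), and *Rela*, a subunit of NF-κB, fell (-0.18, adjusted p = 0.0220). In KO cells *Irf2* and *Nfya* rose by 0.23 and 0.30 (adjusted p of 0.0228 and 0.00112). *Creb1* and *Rela* had the same directions there, at 0.28 and -0.12, but did not pass (adjusted p of 0.0606 and 0.243). Of 10 interferon receptor and proximal signalling genes, *Jak2*, the kinase of the interferon-γ receptor, rose in both genotypes by 0.60 and 0.48 (adjusted p of 7.33e-09 and 2.50e-07), and *Ifnar1*, a chain of the type I interferon receptor, fell by 0.28 and 0.19 (adjusted p of 1.11e-05 and 0.000919). *Ifnar2*, its other chain, fell in Ctrl cells (-0.20, adjusted p = 0.00201) and was at -0.13 in KO cells (adjusted p = 0.0815). None of these 10 passed between KO and Ctrl cells by edgeR or DESeq2, and 2 had an unadjusted p under 0.05 with ligand.

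MHC class II genes were low. Of 8 listed genes 7 were tested and none passed in any comparison by edgeR. In the averaged comparison 2 had an unadjusted p under 0.05, and DESeq2 called 1. *Ciita*, the class II transactivator and relative of *Nlrc5*, and *Ctss* were under 1 CPM in every library. *H2-Eb1* had 13.8, 6.57, 47.3 and 24.6 CPM in the Ctrl PBS libraries of isolations 1 to 4 and, like most of the class I genes, was higher in isolations 3 and 4 than in 1 and 2 in all 4 groups. It had an averaged log2 fold change of 0.21 in KO cells (adjusted p = 0.0756).

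After the isolation means were taken out, the genes outside the list whose log2 CPM followed the mean of the 10 most closely over the 16 libraries were *H2-T23* (Pearson r = 0.975), *Zbp1* (0.967), *Ifih1* (0.963), *H2-T22* (0.958) and *Herc6* (0.957). The points share libraries and scaling, so these values are a description. The 10 genes were themselves higher in KO cells, so a higher level in KO cells is partly built into this choice of genes. The KO differences of the chosen genes are therefore also a description and no separate support. Of these genes, *Ifih1* and *H2-T22* were higher in KO cells in the averaged comparison (*Ifih1* by 0.42 on the log2 scale, adjusted p = 0.0193), and *H2-T23*, *Zbp1* and *Herc6* had log2 fold changes of 0.25, 0.58 and 0.36 (adjusted p of 0.0532, 0.0577 and 0.129). Within the list *H2-D1* (r = 0.958) and *Tap1* (0.955) lay closest to the mean of the 10, which includes them, and *B2m* farthest from it (0.579).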

How the data were processed

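RNA of MLECs in 4 groups of 4 libraries was measured. The authors deposited raw read counts per gene, made from stranded poly-A libraries with HISAT2 2.0.5 on GRCm39 and featureCounts 1.5.0-p3, per the labels. The annotation release and the strand setting of counting were not given in the sources used here, and DESeq2 1.26.0 is also named there.

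Counts were tested in R 4.3.3 with edgeR 4.0.16: filterByExpr (minimum count 10, total 15), TMM, a quasi-likelihood fit of all 16 libraries with the isolation as a block, and Benjamini-Hochberg adjustment over 15693 genes at 0.05. Replicate numbers pair the libraries because a number is 1 mouse, and after group means were removed 24 same-numbered pairs correlated at 0.670 or more (mean 0.757; other 72 pairs -0.251). Library totals of 14869115 to 17242117 counts set the counting precision. No libraries were left out or duplicated. Within-isolation log2 values used a prior count of 2. Ratios were compared with exact paired permutation tests. The procedure was tested on simulated data.

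Alternatives were no block, DESeq2 1.42.0, RLE size factors, no filter, at least 10 counts in every library, only the libraries of a comparison, quantile normalisation with ComBat (sva 3.50.0) and DESeq2, leaving out each isolation and, added later, canonical lengths and the isolation by genotype test.

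Genes named are the 10 members, *Eng*, list genes past the threshold or else the 2 most abundant of a list, *Psmb5* to *Psmb7* and the 5 genes most like the members. Members and lists were chosen with earlier results of these data known. Results for some genes of these lists are not reported here.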

Additional observations from a re-analysis of the deposited data

Results flagged for a closer look

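An edgeR F test of the isolation by genotype terms over all tested genes called *Tap1* (adjusted p = 0.0169) and *Nlrc5* (adjusted p = 0.0455). It was added after the values were seen. It cannot tell a KO difference that varies among isolations from variation between cultures, because its spread comes from libraries of the same isolation and genotype. The averaged log2 differences of *Tap1* were 0.32, 0.34, 0.24 and -0.04 in isolations 1 to 4, and those of *Nlrc5* were 0.36, 0.24, 0.20 and -0.14. No library stood apart from the others of its group by Dixon's test in any of the 40 combinations of gene and group.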

How the results depend on the processing

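The direction of the averaged KO difference was the same for all 10 genes under every alternative, but calls depended on the processing. No block called 0 genes in the averaged comparison, and for single genes changed no call but that of *Tap1*. DESeq2 with the block called 3 in the averaged comparison and 1 with ligand. Without a filter 5, 4 and 1 genes were called in the averaged, ligand and PBS comparisons, and with quantile normalisation, ComBat and DESeq2 5, 3 and 1. For ligand against PBS in Ctrl cells 1 gene (*Nlrc5*) was called without a filter, in a fit of only those libraries and after quantile normalisation. Leaving out an isolation gave 0 to 6 calls in the averaged comparison, 0 to 2 with ligand, 0 to 3 in PBS and 0 to 1 for ligand in Ctrl cells, each highest without isolation 4. Over all genes the averaged comparison called 217 genes, 1 without the block, 273 by DESeq2, 597 without a filter, 739 after quantile normalisation, and 44, 108, 52 and 257 without isolations 1 to 4. The KO against Ctrl calls were 40 with ligand (1 without the block, 138 by DESeq2, 517 without a filter, 533 after quantile normalisation, 6 to 175 with an isolation left out) and 3 in PBS (1, 7, 204, 151 and 1 to 69). Ligand calls were 1521 and 878 in Ctrl and KO cells, and 167 and 91 without the block. Leaving out isolation 1 or 3 reduced the averaged calls that were higher from 110 to 2 and 8. The no-filter fit tests 29339 genes, and the cause of its extra calls was not tested.

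With canonical lengths, a choice made after seeing the data, the mean ratios were 1.60 in place of 0.427 (*Psmb8* to *Psmb5*), 0.316 in place of 0.211 (*Psmb9* to *Psmb6*) and 0.266 in place of 0.605 (*Psmb10* to *Psmb7*). The KO difference of the ratio changed sign for *Psmb9* to *Psmb6* in PBS (-0.069 to 0.11) and for *Psmb10* to *Psmb7* with ligand (-0.0081 to 0.15) when an isolation was left out.

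Of the values of single genes under the alternatives, 567 kept direction and call, 34 gained a call, 4 lost one and 35 changed sign, all 35 uncalled. The sign changed in these ranges over the fits that left out an isolation. For ligand in Ctrl cells these were *H2-K1* (-0.00047 to 0.051), *H2-D1* (-0.016 to 0.029), *B2m* (-0.012 to 0.075), *Tap2* (-0.029 to 0.040), *Psmb8* (-0.13 to 0.0060) and *Psmb10* (-0.028 to 0.067). For ligand in KO cells they were *H2-K1* (-0.016 to 0.010), *H2-D1* (-0.025 to 0.00080), *Tap1* (-0.0060 to 0.033), *Psmb8* (-0.073 to 0.015) and *Nlrc5* (-0.074 to 0.011). For KO in PBS they were *B2m* (-0.023 to 0.068), *Psmb9* (-0.0029 to 0.22) and *Nlrc5* (-0.0043 to 0.16). For the difference of responses they were *H2-D1* (-0.054 to 0.017), *B2m* (-0.022 to 0.063), *Tap2* (-0.024 to 0.067), *Tapbp* (-0.053 to 0.063), *Psmb8* (-0.079 to 0.14) and *Psmb9* (-0.015 to 0.092). Without the block the sign changed for *H2-D1* in Ctrl cells with ligand (-0.0056), *Psmb8* in KO cells with ligand (0.0064) and *H2-D1* in the difference (0.00075). After quantile normalisation it changed for *H2-D1* in Ctrl cells with ligand (-0.017), *B2m* for KO in PBS (-0.00066) and *Tapbp* in the difference (-0.013), which was also -0.00013 by DESeq2 and -2.2e-05 with RLE size factors. The cause of these changes was not tested.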
